A study of Homo sapiens with 18 samples.

Results

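A549 is an established human lung carcinoma line with features of the alveolar type II cell, the cell that makes surfactant. The 12 arrays described here hold the RNA of A549 cultures that met no formaldehyde, out of 18 arrays in the series. The cells were grown to a dense layer on porous membranes, lifted to the air-liquid interface and then kept for 72 h in a humidified gas stream. Each of 9 experiments placed cultures in a reference chamber and in an exposure chamber, with 1 array for each chamber. The exposure chamber held 0 ppm (A), 0.1 ppm (B) or 0.5 ppm (C) formaldehyde. The untreated groups of 3 arrays are therefore the reference chamber of A, B and C and the exposure chamber of A, all of the same line and the same duration. Arrays are named by letter, chamber and replicate, as in A reference 1. The remaining 6 arrays, B exposure and C exposure, carried formaldehyde and serve only for comparison. A cell line has no other cell types in it and 1 genetic background, and the labels do not say whether the replicates share a passage. Both chambers of the A experiments are among the 12 arrays. The spread between arrays therefore mixes the spread between experiments with 1 line and that between chambers of 1 experiment.

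Genes were ranked by the mean log2 signal of their brightest probe set over the 12 arrays, and no contrast between groups entered the choice. The 54675 probe sets name 19775 genes, of which 10523 have more than 1 probe set. Signals are MAS5 signals, each array scaled to a trimmed mean of 500. A ranking of signals orders hybridisation and not molecules, because probe sets bind with different strength. The background ceiling was the 95th percentile of 38 measured genes of other organs, such as crystallins and protamines, and stood at a log2 signal of 4.12 (signal 17.4). A gene was called above background where the lowest of the 12 arrays lay over the ceiling, and near background where its mean lay at or under it. By this measure 11990 genes (60.6%) were above background, 6658 near background and 1127 between. The lowest array was within 0.25 log2 over the ceiling for 162 genes and within 0.25 under it for 188, which were the genes nearest to the limit.

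Before the results, 2 arrays need to be named. The 5′ probe set of actin, one of the control probe sets for the length of the labelled RNA, was at 6.85 on A reference 3 and 5.90 on B reference 1, against 7.75 to 9.70 on the other 10. The 5′ probe set of GAPDH did not go the same way: it was highest on these 2 arrays, at 14.61 and 14.67, against 13.67 to 14.23 on the others. Across the genes above background these 2 arrays correlated with each other at r = 0.984 and with the rest at 0.889 to 0.956, while pairs of the other 10 lay between 0.965 and 0.992. Genes are not independent replicates, so these values are a description. Without both arrays 12090 genes were above background.

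The 5 genes that mark this line were above background on every array. AGR2, a disulfide isomerase of mucus-making cells, ranked 186 with log2 signals from 13.46 to 14.23 (median 13.76). LDHB, the lactate dehydrogenase subunit that favours pyruvate, ranked 53 and ran from 13.84 to 14.84 (median 14.15). ALDH1A1, a retinal and aldehyde dehydrogenase, ran from 13.49 to 14.30 (median 13.81). On all 12 arrays these 3 genes sat within 1 log2 step of their own lowest value.

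CDH17, the liver-intestine cadherin, spanned 12.43 to 12.95 (median 12.54) with an SD of 0.16 (n = 12). ETV5, an ETS factor that acts downstream of FGF signalling in the alveolar type II cell, spanned 12.73 to 13.50 (median 12.99). Its 4 other probe sets had means of 11.60, 7.10, 6.83 and 5.79, all over the ceiling, so the level of ETV5 depends on the probe set while its presence does not. Group means of CDH17 were 12.52 in A reference, 12.63 in A exposure, 12.63 in B reference and 12.61 in C reference, and the groups overlapped.

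**Figure D1:**
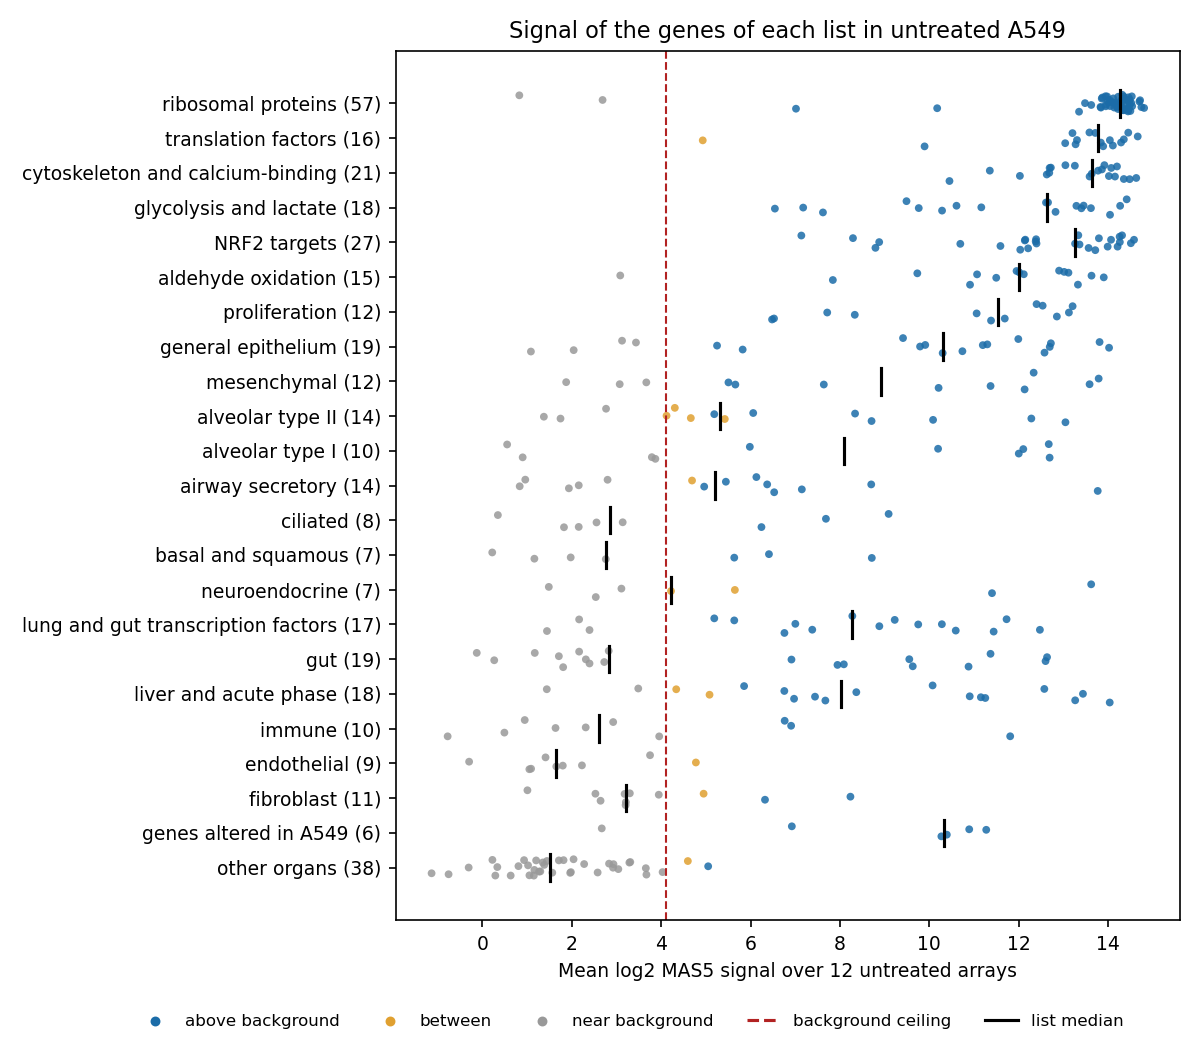
Mean log2 MAS5 signal over the 12 untreated arrays (horizontal axis) for every measured gene of 23 lists (vertical axis, number of genes in brackets). Points are genes coloured by class, black bars are list medians and the dashed line is the background ceiling of 4.12; ribosomal proteins have a median of 14.27 and genes of other organs one of 1.51.

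The brightest signals belonged to the machinery of translation. A ribosome is built from RNA and many small proteins whose transcripts are among the most abundant of any dividing cell. Of the 57 ribosomal protein genes measured, 55 were above background, 40 stood among the 100 brightest genes and 16 among the 30 brightest, and their median was 14.27 against 7.06 over all genes. RPS23 led with 14.34 to 15.34 (median 14.73), followed by RPL41, RPL37 and RPL24 with means of 14.74, 14.71 and 14.70. RPS23 was the brightest gene on 10 arrays and RPL24 on the other two. RPL36A (2.69) and RPL3L (0.83), a form known from striated muscle, were the members near background. Probe sets that name several genes were left out, so the low value of RPL36A does not show that its transcript was absent. Of 16 translation factors 15 were above background, led by EEF1A1, which brings aminoacyl-tRNA to the ribosome, at 14.30 to 15.06 (median 14.53). TPT1 and EIF1 had means of 14.45 and 14.35.

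Between rank 1 and rank 30 the means ran from 14.80 to 14.42 with SDs of 0.25 to 0.42. The means of neighbours in this order thus lay closer together than the SD of either gene over the arrays. RPS6 at 14.42 was the last gene inside and GAPDH at 14.41 the first outside. On a single array 22 to 28 of the 30 genes were again among its own 30 brightest, and 10 of them were on all 12 arrays. The genes of the top 30 that are not ribosomal included ACTB (14.63), ATP5F1E and ATP5MJ of the mitochondrial ATP synthase (14.58 and 14.48), UQCRB of respiratory complex III (14.49), the chaperone HSP90AA1 (14.50) and TMSB10, an actin-binding peptide (14.48). TM4SF1, a tetraspanin-like surface protein of many carcinomas, ran from 14.14 to 15.04 (median 14.48). The 21 genes of the cytoskeleton and of small calcium-binding proteins were all above background, among them MYL6 (14.35), S100A6 (14.15) and ANXA2 (14.02).

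NRF2, encoded by NFE2L2, is a transcription factor that drives genes of quinone and carbonyl reduction, glutathione synthesis and NADPH supply. KEAP1 normally holds it for degradation, and A549 is known to carry an inactivating change in KEAP1. NRF2 binds the antioxidant response element, whose core letters are TGACNNNGC. These letters were searched on both strands of RefSeq promoter windows (GRCh38.p14) from 250 bases before to 50 bases after the start, for 21 of the 27 NRF2 target genes. They stood in 8 of the 21 (38.1%), in 1924 of 9852 genes above background (19.5%) and in 4384 of 27305 genes in all (16.1%), or 4687 of 35116 single windows (13.3%). A match of letters is a description and not a binding site. The matches that lie before the start are shown because these genes carry the signal described next, with the core in capitals and 10 bases on each side, on the strand that reads TGAC.
CBR1 (chr21:36069855-36069883, minus strand): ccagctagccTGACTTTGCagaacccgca
EPHX1 (chr1:225825266-225825294, plus strand): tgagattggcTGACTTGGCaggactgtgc
GCLM (chr1:93909446-93909474, plus strand): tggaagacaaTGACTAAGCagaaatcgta
GPX2 (chr14:64942849-64942877, plus strand): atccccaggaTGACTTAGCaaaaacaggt
ME1 (chr6:83431170-83431198, minus strand): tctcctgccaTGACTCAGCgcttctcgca
PGD (chr1:10398853-10398881, minus strand): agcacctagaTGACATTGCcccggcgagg
TXNRD1 (chr12:104215670-104215698, plus strand): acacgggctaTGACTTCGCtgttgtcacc
The match of PIR lies after its start and is not shown. The ME1 window also holds the letters of an AP-1 site.

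All 27 NRF2 target genes measured were above background, against 60.6% of all genes. Their median was 13.26, 7 were among the 100 brightest genes and 14 among the 500 brightest. The aldo-keto reductases, which reduce aldehydes and ketones with NADPH, led the list. AKR1B10 ranked 8 with 14.14 to 15.03 (median 14.46), AKR1C3 had a mean of 14.31, AKR1C2 of 14.26 and AKR1C1 of 14.06. The AKR1C genes are near-identical copies, so their probe sets may share signal. NQO1, the quinone reductase, ran from 13.98 to 14.94 (median 14.46), and its other probe sets were at 13.68 and 12.97. FTL, the ferritin light chain, had a mean of 14.26 and TXN, thioredoxin, of 14.21. AKR1B10 and NQO1 thus stood between ribosomal proteins in the order of signals.

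Of the genes whose promoter windows are printed above, TXNRD1, which reduces thioredoxin, was brightest at 13.56 to 13.95. GCLM, the modifier subunit of glutamate-cysteine ligase, had a mean of 12.40 ± 0.37 (SD, n = 12), ME1 of 12.39 ± 0.19, EPHX1 of 12.38 ± 0.51 and PGD of 12.15 ± 0.23. CBR1 was at 10.69 and GPX2, a gastrointestinal glutathione peroxidase, at 8.79. SLC7A11, the cystine importer, had a mean of 13.56 and GCLC of 12.03. The members of lowest signal were CES1 at 7.14, HMOX1, heme oxygenase, at 8.29 with 7.79 to 9.19 over the arrays, and OSGIN1 at 8.88. The list therefore ran from 7.14 to 14.58. HMOX1 is a gene also driven by heme and stress. NFE2L2 itself was at 10.89 and KEAP1 at 10.27.

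Formaldehyde is oxidised by the glutathione-dependent enzyme ADH5 together with ESD, and can also be oxidised by ALDH2. The ALDH family oxidises other aldehydes as well. In cells that had met no formaldehyde, 14 of 15 genes of this list were above background (93.3%, against 60.6% of all genes). ESD had a mean of 13.63 ± 0.21 (SD, n = 12) and ADH5 ran from 12.62 to 13.31 (median 12.86). Besides ALDH1A1, the means were 13.32 for ALDH3A1, 13.11 for ALDH3A2 and 13.02 for the mitochondrial ALDH2. ALDH1A3 was at 7.84, and ALDH1A2 at 3.09 was near background. Of 18 genes of glycolysis and lactate handling all were above background, with PGK1 at 13.61 and LDHA at 14.04, and with HK2, the inducible hexokinase, lowest at 6.55.

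Epithelial and mesenchymal genes were present side by side. Of 19 general epithelial genes 15 were above background. CD24 (13.77 to 14.32, median 13.98), KRT18 (13.81), KRT8 (12.58), the junction scaffold TJP1 (12.72) and E-cadherin, CDH1 (11.01 to 12.32, median 12.10), were bright. A second probe set of CDH1 had a mean of 1.98. EPCAM was at 9.41 and KRT19 at 5.82. CLDN4 (3.44), CLDN7 (2.04), GRHL2 (3.13) and ESRP1 (1.09), genes of the fully sealed and polarised epithelium, were near background. Of 12 mesenchymal genes 9 were above background: fibronectin, FN1, ran from 13.37 to 14.14 (median 13.75), N-cadherin, CDH2, from 11.96 to 13.05, and vimentin, VIM, from 11.86 to 12.87. ZEB1 (11.37) and TWIST1 (10.21), repressors of epithelial genes, were bright, whereas SNAI1 (3.67) and SNAI2 (3.07) were near background.

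The genes of the mature alveolar type II cell, which packs surfactant lipids and proteins into lamellar bodies, were only in part present. Of 14 measured, 7 were above background. After ETV5 these were LPCAT1, which makes surfactant phosphatidylcholine (12.28), the protease CTSH (10.08), the lipid transporter ABCA3 (7.93 to 10.18, median 8.51), HHIP (8.34), and at the dim end surfactant protein B, SFTPB (5.37 to 6.47, median 6.09), and NKX2-1, the lung lineage factor (4.59 to 6.02, median 5.13). The other probe set of NKX2-1 had a mean of 3.94, under the ceiling, so its presence rests on 1 dim probe set. SFTPC lay between the classes, with 3.20 on the lowest array and a median of 5.65, as did SFTPD, LAMP3 and NAPSA. The phosphate transporter SLC34A2 (1.38), PGC (1.75) and DMBT1 (2.77) were near background.

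The alveolar type I list split in the same way: CAV2 (12.69), CAV1 (12.67), CLIC5 (12.10 on 1 probe set, with its other 4 between 1.31 and 3.15), EMP2 (10.20), RTKN2 (5.98) and GPRC5A were above background, while AGER (3.79), PDPN (3.87), HOPX (0.90) and the water channel AQP5 (0.56) were near it. The share above background was 60.0%, beside 60.6% of all genes. Several of the present genes, the caveolins among them, are known from many other cell types.

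Of 14 airway secretory genes 8 were above background (57.1%, against 60.6% of all genes). AGR2 was described above, and SPDEF, a factor of goblet cells, was at 7.61 to 9.88 (median 8.75). The mucins MUC5AC (7.15) and MUC5B (6.13) were above background, and SCGB1A1, the club cell secretoglobin, at 0.96 was near it, as were SCGB3A1 and SCGB3A2. Ciliated cell genes were above background in 3 of 8 cases (DNAH5, CAPS and RSPH1), and FOXJ1, their master factor, at 3.14 was near background. Of 7 basal and squamous genes, ITGB4 (8.71), KRT15 (6.41) and SOX2 (5.64) were above background and KRT5 (1.17) and KRT14 (2.76) were near it. Of 7 neuroendocrine genes only UCHL1, a deubiquitinase of neurons (13.23 to 14.14, median 13.59), and CHGB, a granin of secretory granules (11.40), were above background, and INSM1 at 2.54 was near it. None of these lists was present as a whole, and the share above background of each was under the 60.6% of all genes.

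**Figure D2:**
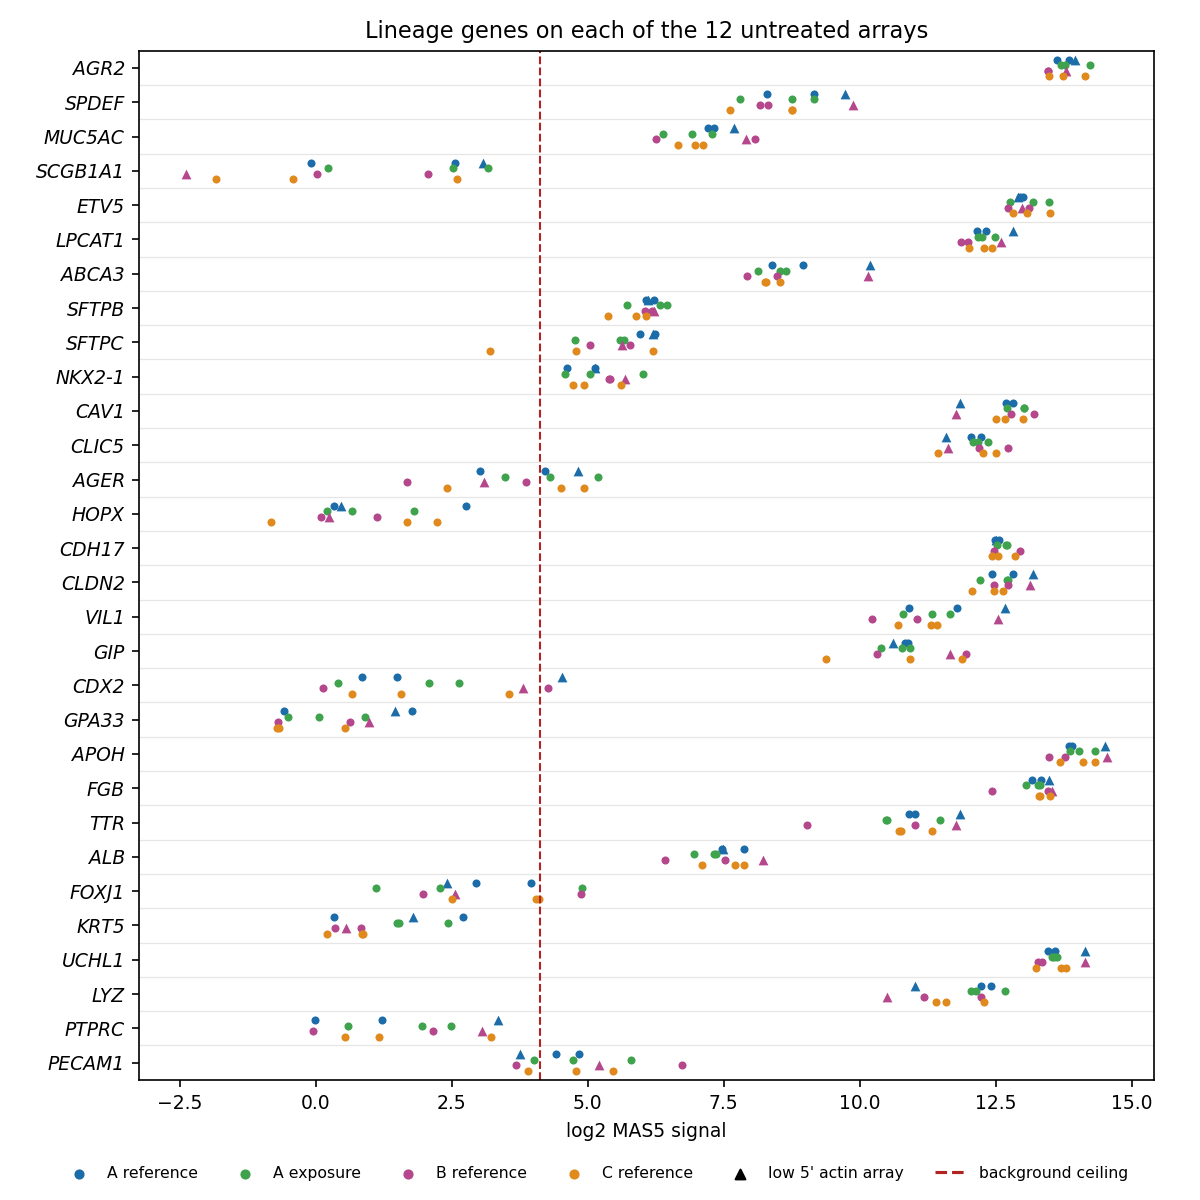
Log2 MAS5 signal (horizontal axis) of 30 lineage genes (vertical axis) on each of the 12 untreated arrays, coloured by group; triangles are the 2 arrays of low 5′ actin signal and the dashed line is the background ceiling of 4.12. CDH17 spans 12.43 to 12.95 while CDX2, at 0.14 to 4.53, crosses the ceiling on single arrays.

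Gut and liver genes included some of the brightest lineage genes. Of 19 gut genes 9 were above background (47.4%, against 60.6% of all genes). CLDN2, a claudin of leaky epithelia, ran from 12.07 to 13.18 (median 12.67), CDH17 was described above, villin, VIL1, ran from 10.23 to 12.68 (median 11.33), and the hormone precursor GIP from 9.39 to 11.95 (median 10.85). TFF1 (9.63), LGALS4 (9.55), MUC13 (8.09), KRT20 (7.95) and CEACAM5 (6.92) followed. The other 10 were near background, among them the intestinal factors CDX1 (2.40) and CDX2 (2.17), the goblet mucin MUC2 (1.17), GPA33 (0.27) and GUCY2C (-0.12). CDH17 and VIL1 are known targets of CDX2, and both were bright with the mean of CDX2 near background. CDX2 had a mean of 4.17 on the 2 arrays of low 5′ actin, on which VIL1 was highest, and 1.77 on the other 10. What drives CDH17 and VIL1 here was not tested.

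Of 18 genes of liver plasma proteins and the acute phase, 14 were above background (77.8%, against 60.6% of all genes). APOH, a phospholipid-binding plasma protein, ran from 13.48 to 14.55 (median 13.97). The 3 fibrinogen chains were present together: FGG ran from 12.48 to 13.91 (median 13.43), FGB from 12.42 to 13.53 (median 13.31) and FGA from 11.75 to 13.38 (median 12.50). SERPINA1 (11.25), complement factors CFB (11.15) and C3 (10.07), and transthyretin, TTR (9.02 to 11.85, median 10.96), were bright, ALB was at 7.44 and AFP at 6.97. APOC3 (3.49) and APOB (1.44), of the lipoproteins that liver secretes, were near background, and APOA1 and HP lay between.

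Of 17 transcription factors of lung and gut, 14 were above background (82.4%, against 60.6% of all genes). KLF5 (12.47), SOX9 (11.73), CEBPB (11.44), FOXA2 (10.26 to 10.79, median 10.59), HNF4G (10.28, with 0.70 on its other probe set), GATA6 (9.23) and FOXA1 (8.28) were among them, beside NKX2-1 and SOX2 with the values given above. CDX1, CDX2 and ISX were near background. Of the 14 above background FOXA2 varied least, with an SD of 0.15, and ID2 most, with 0.95.

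Lists of other cell types were read as well. All 9 endothelial genes failed to pass, 8 of them near background (VWF at 1.66, CDH5 at 1.80), with PECAM1 between. Of 10 immune genes 7 were near background, PTPRC (1.64) and CD3E (-0.77) among them, and LYZ, ITGAM and CD14 were above it. Lysozyme, LYZ, is also made by airway glands. It had 10.50 to 12.67 on one probe set and a mean of 1.92 on its other, so its presence rests on 1 probe set. Of 11 fibroblast genes COL1A1 (8.24) and ACTA2 (6.32) were above background, while DCN, LUM and COL1A2 were near it. The 38 genes of other organs set the ceiling themselves, so that few of them could lie over it. TNNI3 at 5.05 was above background, and GRIN1, with a mean of 4.60, lay between the classes. Summed over its members the signal ran from 33.5 to 183 for the endothelial and from 373 to 755 for the fibroblast list over the 12 arrays, sums that depend on the number of genes and on their probes and are not set against each other.

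All 12 proliferation genes were above background after 72 h in the chambers, against 60.6% of all genes. RRM2, the ribonucleotide reductase subunit, had a mean of 13.20, BIRC5, survivin, of 13.12, AURKA of 12.85, CDK1 of 12.53 and PCNA of 12.40. MKI67 was at 7.05 to 9.66 (median 8.22), MCM5 at 6.53 and PLK1 at 6.48. In a bulk sample, more cycling cells and more RNA per cell cannot be told apart.

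Among genes known to be altered in A549, CDKN2A, the cell cycle inhibitor whose locus the line has lost, was near background on all 3 of its probe sets (2.67, 1.43 and 0.62). Its neighbour MTAP, of the methionine salvage route, is known to be lost with it. MTAP had 5 probe sets under the ceiling (3.75, 2.82, 0.83, -0.01 and -0.25) and 1 at 10.39, which alone placed the gene above background. STK11, a kinase that the line carries in an inactive form, was at 11.27 and the chromatin remodeller SMARCA4 at 6.92. A transcript can be measured whether or not its protein works.

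**Figure D3:**
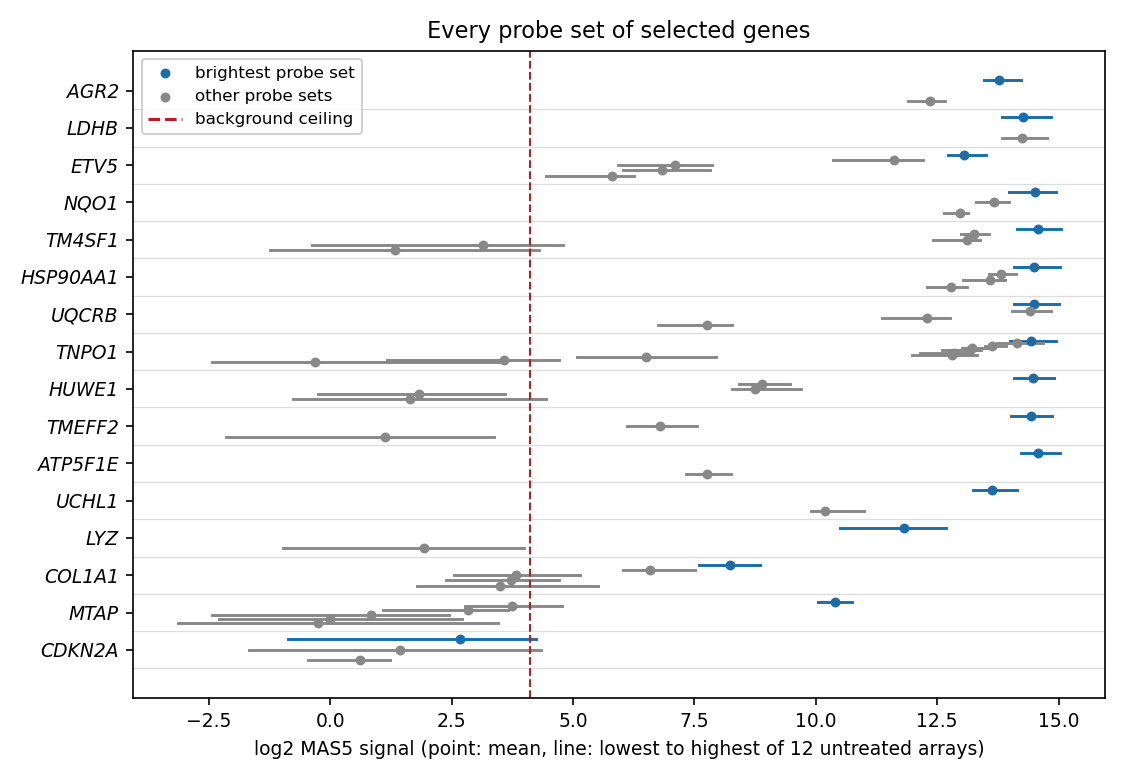
Mean (point) and range from the lowest to the highest of the 12 untreated arrays (line) of log2 MAS5 signal (horizontal axis) for every probe set of 16 genes (vertical axis). LDHB has 2 probe sets at 14.27 and 14.26, MTAP has 1 at 10.39 and 5 under the background ceiling of 4.12 (dashed line).

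How far a level depends on its probe set differed between genes. LDHB had 2 probe sets at 14.27 and 14.26, and AGR2 had 13.77 and 12.35. HUWE1, a ubiquitin ligase, ranked 21 through a probe set of the class that may bind several transcripts, while its others had means of 8.89, 8.76, 1.83 and 1.64. TMEFF2, a transmembrane protein described in brain and prostate, ranked 28 at 14.43 with 6.80 and 1.12 on its others, and ATP5F1E had 14.58 and 7.76. The ranks of HUWE1, TMEFF2 and ATP5F1E thus rest on 1 probe set each. Of the 7930 genes above background with more than 1 probe set, 3622 had at least 1 at or under the ceiling, and of the 414 genes examined by name 32 had only 1 probe set with a mean over it.

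The spread between arrays depended on level. The median SD over the 12 arrays was 0.39 for genes above background and 1.32 for genes near it. Among the 4944 genes with the highest means (over 10.14) the 10 least variable included TMED10, a cargo receptor of the early secretory route (13.07 to 13.28, SD 0.06), the endosomal GTPase RAB5A (12.63 to 12.83, SD 0.06), WASL (SD 0.07) and the phosphatase PTPN11 (SD 0.08). ACTB, often used as a reference gene, had an SD of 0.37 and GAPDH one of 0.30, close to 0.32, the median of the 100 brightest genes.

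**Figure D4:**
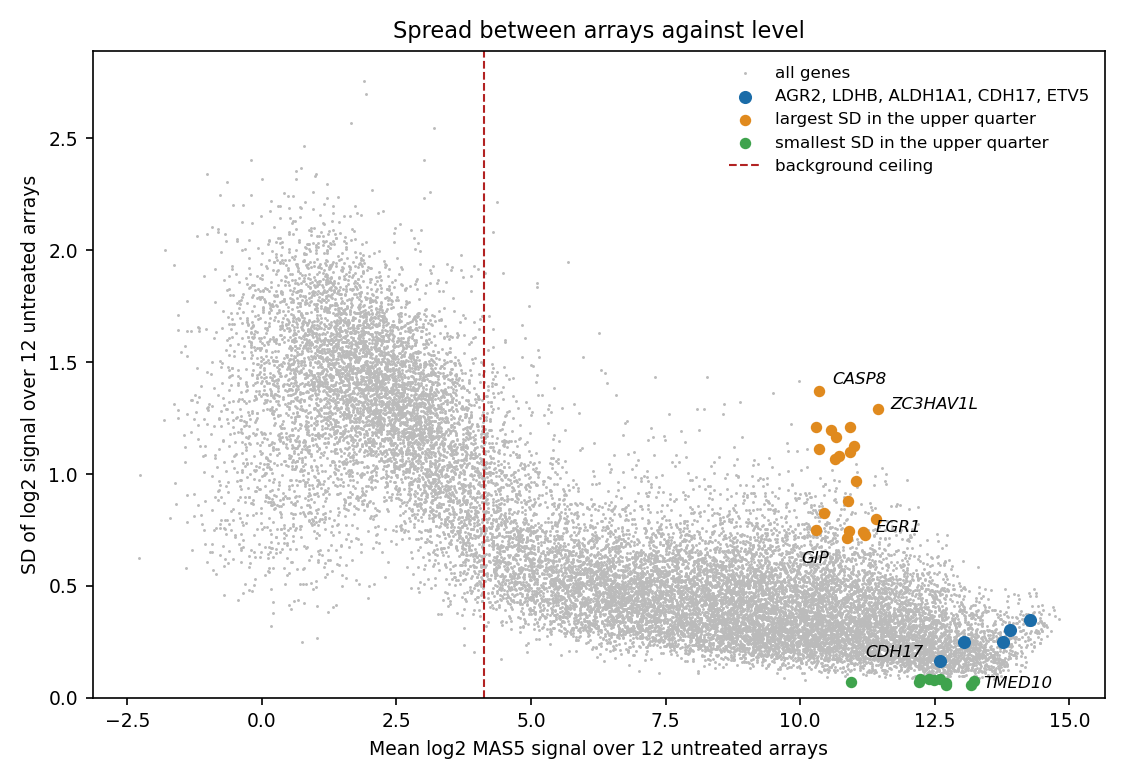
SD of log2 signal over the 12 untreated arrays (vertical axis) against mean log2 MAS5 signal (horizontal axis), 1 point per gene, with the genes that mark the line, the most variable and the least variable bright genes in colour. CASP8 has an SD of 1.37 and TMED10 one of 0.06 at means of 10.36 and 13.17.

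AKR1B10 and LDHB, both among the brightest genes, varied together. AKR1B10 was at 14.79 to 15.03 on A reference 3, A exposure 2, B reference 1, C reference 2 and C reference 3, and at 14.14 to 14.48 on the remaining arrays. LDHB was at 14.40 to 14.84 on the same 5 arrays and at 13.84 to 14.18 on the others. On these 5 arrays the 100 brightest genes held 8.56% to 10.1% of the summed signal of all genes, and on the others 6.49% to 7.81%. After quantile normalization the median SD of the 100 brightest genes was 0.08 in place of 0.32. That of all genes with means over 10.14 was 0.30 in place of 0.31. The SDs of the brightest genes given here therefore hold a shift that depends on the scaling. Its part in the SD of a single gene was not tested.

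The 10 most variable bright genes were lowest on the 2 arrays of low 5′ actin. CASP8, an apoptosis protease, was at 7.45 on B reference 1 and 7.93 on A reference 3 and at 9.81 to 11.74 elsewhere. CD9, a tetraspanin, was at 7.84 and 7.92 there and at 10.06 to 11.69 elsewhere. Its SD was 1.21 over 12 arrays and 0.48 over the other 10. ZC3HAV1L, ZNF217, SIPA1L3, ZSWIM6, SEC23IP, KLF7, TRUB1 and GOLPH3 completed this set, with SDs of 1.08 to 1.29 that went to 0.36 to 0.55 without both arrays.

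Across the genes above background, both arrays lay over all others for 3846 of 11990 (32.1%) and under all others for 2688 (22.4%). The lists were not spread evenly over this order. Both arrays were highest for 48 of 55 ribosomal proteins (87.3%), for 8 of 14 liver genes, and for VIL1, CLDN2, ABCA3 and UCHL1. They were lowest for 7 of 14 transcription factors (50%), SOX9, KLF5, CEBPB, HNF4G and FOXA1 among them, and for CAV1, CAV2, TJP1, NFE2L2 and LYZ. NFE2L2 and HNF4G differed by -1.51 and -2.17 in mean log2 signal between these 2 arrays and the other 10. The part of RNA quality in these levels was not tested. Without both arrays the mean of CASP8 was 10.89 in place of 10.36 and that of HNF4G 10.64 in place of 10.28, and none of the 23 lists changed its count above background by over 1.5 times.

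Of the other bright genes, those with the largest SD over the remaining 10 arrays were RUFY2, MYL12A, EGR1, VCF2, GIP, H2AX, CST4, GLUL, CPOX and TTR. EGR1, an immediate early gene that answers handling and growth factors within minutes, ran from 10.27 on C reference 1 to 12.47 on B reference 2 (median 10.95). The exposure chamber of the same experiment had 10.51 beside C reference 1 and 12.48 beside B reference 2. Not every pair was as close: B reference 3 had 10.38 and B exposure 3 had 11.50. TTR was lowest on B reference 2 at 9.02, with 8.79 in the exposure chamber of that experiment, and at 10.48 to 11.85 on the other untreated arrays. GIP was lowest on C reference 2 at 9.39, with 9.44 beside it, and highest on B reference 3 at 11.95.

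Whether levels differed among the 4 untreated groups was tested with the moderated F of limma over all probe sets. An unadjusted p under 0.05 was reached by 2164 of 54675 probe sets (3.96%), by 594 of 19775 brightest probe sets (3.00%) and by 29 of 11990 genes above background (0.242%). The percentages are the background against which list members are read. After Benjamini-Hochberg adjustment 4 probe sets passed (0.00732%), all with means over the 12 arrays under 4, and 1 of them names a gene, MSI2. Of the 30 brightest genes and of the NRF2, aldehyde, alveolar, gut and liver lists 0 members reached an unadjusted p under 0.05 in limma. RPL36A, EIF4A2, KRT19 and COL3A1 did so in their lists, as did 2 of 10 immune genes, NKG7 and CSF1R, and 4 of 38 genes of other organs, each with an adjusted p above 0.05 in limma. The means of AGR2 were 13.81, 13.90, 13.57 and 13.79 in A reference, A exposure, B reference and C reference (adjusted p = 1 in limma). A p above the threshold does not show that the groups are alike, and with 3 arrays a group small differences are not detectable.

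The 6 formaldehyde arrays were set against the 12 untreated ones to see where the levels described here hold in the rest of the series. Of the 100 brightest genes 97 were again among the 100 brightest, and 11822 genes were above background in both, which is 98.6% of those in untreated and 97.1% of those in formaldehyde cultures. The test in limma gave an unadjusted p under 0.05 for 3246 of 54675 probe sets (5.94%), for 1177 brightest probe sets (5.95%) and for 655 genes above background (5.46%). After adjustment 1 probe set passed (0.00183%), of KIF6, a kinesin, with means of 0.52 in untreated and 2.92 in formaldehyde cultures, both under the ceiling. Of the 655 genes 597 (91.1%) were lower with formaldehyde. All 6 formaldehyde arrays came from the exposure chamber and, of the untreated groups, only A exposure did. The fit pooled both doses and held no term for the chamber or the pairs. Formaldehyde and chamber therefore cannot be fully told apart in it. After quantile normalization 418 genes passed, 314 of them lower (75.1%), and without both arrays of low actin 444 passed, 397 of them lower (89.4%), so the count and the split depend on the scaling and on these arrays.

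The marker genes had differences near 0 on the log2 scale, formaldehyde minus untreated. They were -0.01 (standard error 0.17) for AGR2, 0.04 (standard error 0.20) for LDHB, 0.09 (standard error 0.19) for ALDH1A1, -0.02 (standard error 0.12) for CDH17 and 0.10 (standard error 0.14) for ETV5. Of the 30 brightest genes 0 reached an unadjusted p under 0.05 in limma, and their median difference was 0.04, against -0.07 over the genes above background. Of the 27 NRF2 genes 1 was lower at this threshold, CES1, with a difference of -0.62 (standard error 0.27). Of the 15 aldehyde genes 1 was lower, ALDH1B1, at -0.40 (standard error 0.18), while ADH5 and ESD had differences of -0.08 and 0.05. In the gut list 4 of 19 were lower, GIP, TFF1, GPA33 and GUCY2C, of which GPA33 and GUCY2C were near background in untreated cells. In the alveolar type II list 1 of 14 was lower, SFTPB, at -0.39 (standard error 0.18), and 0 of 18 liver genes passed. Over all lists 24 of 380 genes (6.32%) passed unadjusted, 20 of them lower, which is near the share over all probe sets. In the list of other organs, which served for background, 5 of 38 passed, so a count such as 4 of 19 is no result about the gut list. Among those of the 24 genes that were above background and outside the lists just named, RSPH1 was furthest from 0, at -0.65 (standard error 0.20). SPDEF followed at -0.62 (standard error 0.29) and PFKL, a phosphofructokinase, at -0.57 (standard error 0.21). RTKN2 and TOP2A were higher at 0.42 (standard error 0.19) and 0.37 (standard error 0.16). A gene that did not pass could lie further from 0, as CD9 did at 0.68 (standard error 0.49). Of the 24 genes 12 passed both after quantile normalization and without both arrays of low actin, RSPH1, PFKL, TFF1 and GUCY2C among them. SFTPB, SPDEF and GPA33 passed in neither, and CES1, ALDH1B1, GIP, RTKN2 and TOP2A in 1 of them. After adjustment over all probe sets in limma 0 members of any list passed.

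**Figure D5:**
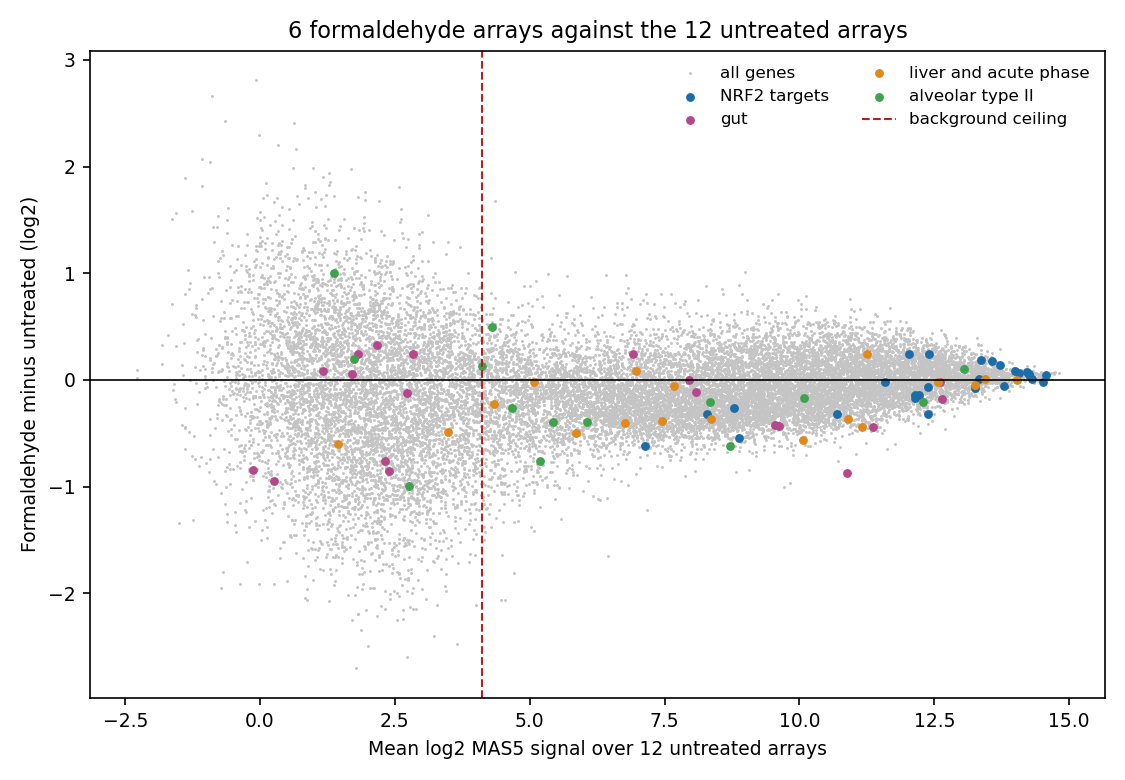
Mean log2 difference between the 6 formaldehyde and the 12 untreated arrays (vertical axis) against the mean log2 MAS5 signal of the untreated arrays (horizontal axis), 1 point per gene, with 4 lists in colour and the background ceiling of 4.12 dashed. GIP stands lowest among the bright gut genes at -0.87, and the NRF2 genes with means over 13 lie between -0.08 and 0.19.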

How the data were processed

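Total RNA of A549 cultures was hybridised to 18 Affymetrix Human Genome U133 Plus arrays. The authors amplified it from the 3′ end, labelled it and computed MAS5 signal intensity per probe set, deposited on a linear scale with each array at a trimmed mean of 500. Log2 was taken with no pseudocount. Probe sets naming 1 gene (41097) were used, 1801 naming several and 11777 naming none were not, and 41043 symbols were updated by gene ID. Some genes of the lists are not analysed here. Groups came from the labels. A exposure 2 carries another date in its raw file name than the other arrays and was treated like them.

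Each gene stands for its brightest probe set. Named genes are the 30 brightest, the members of 23 lists, the 10 most and 10 least variable bright genes, the 10 most variable without the 2 arrays of low actin, and up to 5 genes of the smallest p per test. The members and lists were chosen with earlier results of these data known. Whether replicates are separate passages is not stated, so p-values measure the spread between these cultures.

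Tests used limma 3.58.1 in R 4.3.3 (lmFit and eBayes), fitted on all 54675 probe sets, with an unadjusted p under 0.05 as in the study's methods and Benjamini-Hochberg adjustment. They were tested on simulated data with independent arrays, which held neither the chamber pairs nor the shared deviations of the 2 arrays of low actin. Tables and plots used Python 3.11.15, pandas 2.3.3, numpy 2.4.6 and matplotlib 3.10.9. Alternatives covered scaling, probe set choice, background ceiling, pseudocount, filter, variance model, blocks and left-out arrays. Array number limits the precision.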

Additional observations from a re-analysis of the deposited data

How the results depend on the processing

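The count of genes above background was 9377 with the ceiling at a signal of 100, 9636 without probe sets that may bind several transcripts, 10878 with the median probe set of a gene, and 11946 to 12111 without 1 array. The median probe set in place of the brightest moved 179 of 414 named genes by 1 SD or more, ETV5 to 7.25 and AGR2 to 13.06 among them. The counts of the lists were less stable to these choices than to left-out arrays. Without probe sets that may bind several transcripts, 9 of 23 lists changed their count above background by over 1.5 times. General epithelium and alveolar type II were among these 9, and 330 of the 414 named genes remained. With the ceiling at a signal of 100, 6 lists did so, airway secretory and liver among them.

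Among the 4 untreated groups, the 4 probe sets past an adjusted p of 0.05 became 1 after quantile normalization and 0 with 32 added before log2, with probe sets above the median signal alone, with eBayes trend, with the replicate block or without both arrays of low actin, where limma gave 1597, 417, 1539, 2200 and 2293 at an unadjusted p under 0.05. Leaving out 1 array gave 0 to 8, with 8 without B reference 2, 1 without A exposure 3 and 0 without any other, so each array decides this count. For formaldehyde the 1 probe set became 0 with 32 added, above the median signal and with trend, where 3421, 1942 and 3502 passed unadjusted. Leaving out 1 array gave 1 to 4, with 4 without B exposure 3 and 2 without A exposure 3, C exposure 3 or C reference 2. The cause was not tested.

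Replicate numbers pair chambers within a letter only, where the labels give both arrays of a pair the same raw file number. Deviations of paired arrays correlated at 0.54 to 0.55 in C, at 0.0003 to 0.43 in A and at 0.03 to 0.58 in B. The replicate block joined equal replicate numbers over all letters, which are separate experiments, so it did not follow these pairs. It gave 2200 and 3176 probe sets at an unadjusted p under 0.05, and 0 and 1 adjusted. The experiment as a random block, which did follow the pairs, gave 3 and 1 adjusted. For genes above background eBayes trend gave 53 among untreated groups and 971 for formaldehyde. Signals near background limit every level under about 4.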

Other observations

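Of 13522 probe sets that name no gene or several genes, 3965 were above the background ceiling on all 12 untreated arrays and 66 had means in the range of the 100 brightest genes. The genes with the smallest p among the untreated groups in limma were ZNF385B, UCMA, LINC02624, PZP and CCDC38, all with means under the ceiling (lowest adjusted p of these genes 0.108). For formaldehyde they were FGF7, LINC02114, SORCS3, TRPC4AP and NKPD1 (adjusted p = 0.423 in limma), of which TRPC4AP had means of 6.07 in untreated and 5.13 in formaldehyde cultures and NKPD1 of 4.71 and 2.89.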
